A study of Mus musculus with 20 samples.

Results

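Hair keratins and keratin-associated proteins build the hair shaft and the sheath around it, and their transcripts were followed here through 20 mouse RNA-seq libraries. The set was defined by gene symbol alone: every *Krtap* gene of the count table whose symbol continues with a number, together with the keratins of the hair shaft, the inner root sheath and the companion layer of the follicle. The table lists 55471 genes, and 79 of them were members, 58 *Krtap* genes and 21 keratins. A further 1 keratin of the rule was not analysed here.

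All animals were C57BL/6 wild-type (WT) mice and all groups held 5 libraries. For the skin, 4- to 6-week-old male and female mice were sensitized on the shaved abdomen with the hapten DNFB (dinitrofluorobenzene, which provokes contact allergy), dissolved in acetone and olive oil, and DNFB at 0.25% was then put on the back skin 3 times a week for 22 days, while control skin received acetone. The epidermis of the back skin was isolated. For the pancreas, caerulein, a secretagogue that drives acinar cells into pancreatitis, was injected hourly 6 times a day on 3 days of each of 3 weeks, and control mice received PBS. Libraries are called by their group and the number in their label. Acetone libraries carry the numbers 1, 2, 3, 11 and 12, DNFB libraries 4, 5, 6, 13 and 14, PBS libraries 7, 8, 15, 16 and 17, and caerulein libraries 9, 10, 18, 19 and 20. The labels do not say whether the 5 libraries of a group came from separate mice, so the p-values below measure the spread between libraries, which may be partly technical.

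A growing follicle produces these genes in order from its base upward. Cells of the matrix next to the dermal papilla divide, and their daughters become either shaft or sheath. Type I and type II hair keratins pair into the filaments of the shaft, and keratin-associated proteins (the *Krtap* products, rich in cysteine or in glycine and tyrosine) crosslink those filaments into hard keratin. The inner root sheath, a moulding tube around the shaft that breaks down before the hair leaves the skin, uses its own keratins of both types. Interfollicular epidermis uses *Krt5* and *Krt14* below and *Krt1* and *Krt10* above, so hair keratin transcripts in an epidermal preparation mark follicle material.

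The genes lie in clusters. In GRCm38, 11 of the keratin members are on chromosome 11 and 10 are on chromosome 15. Of the 58 *Krtap* genes, 25 lie on chromosome 16 and 23 on chromosome 11. Chromosome 16 supplied 87.1% of the *Krtap* counts in the skin libraries and 37.6% of those in the pancreas libraries. Sequence just upstream of the start sites was available in RefSeq (GRCm38.p6) for 66 of the 79 members. The letters TATAAA on the sense strand, the core of a TATA box, occurred in 52 of these 66 promoters (78.8%), against 8.32% of all 32851 promoters of 300 bases in the same table. They occurred in 42 of the 51 *Krtap* promoters and in 10 of the 15 keratin promoters. The letters CTTTGAA or CTTTGTT, read on both strands as a core that LEF/TCF factors bind, were in 20 of the 66 (30.3%), against 10.6% of all promoters. A match is a description of the letters and not evidence of use.

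The 250 bases before the RefSeq start are printed for the most counted keratins and *Krtap* genes with an entry. They show where the TATA letters are placed in members of different families. Capitals mark the TATAAA and LEF/TCF letters. All 4 genes are on the reverse strand. They are *Krt71* (chr15:101743098-101743347), *Krt25* (chr11:99322952-99323201), *Krtap11-1* (chr16:89571184-89571433) and *Krtap8-1* (chr16:89487953-89488202), each read 5′ to 3′.
Krt71: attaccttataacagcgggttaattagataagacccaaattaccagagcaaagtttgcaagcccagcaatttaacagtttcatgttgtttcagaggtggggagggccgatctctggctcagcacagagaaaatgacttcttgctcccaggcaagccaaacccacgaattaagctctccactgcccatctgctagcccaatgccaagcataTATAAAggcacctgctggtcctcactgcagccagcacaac
Krt25: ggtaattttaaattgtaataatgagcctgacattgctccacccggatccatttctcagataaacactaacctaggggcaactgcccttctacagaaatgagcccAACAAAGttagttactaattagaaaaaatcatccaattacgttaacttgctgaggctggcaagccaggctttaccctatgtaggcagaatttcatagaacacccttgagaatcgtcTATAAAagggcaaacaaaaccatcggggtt
Krtap11-1: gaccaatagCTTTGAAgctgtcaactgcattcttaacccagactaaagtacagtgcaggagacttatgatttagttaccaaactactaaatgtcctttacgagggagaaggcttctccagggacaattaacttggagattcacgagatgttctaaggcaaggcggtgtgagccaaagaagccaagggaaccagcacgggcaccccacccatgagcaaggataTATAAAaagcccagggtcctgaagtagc
Krtap8-1: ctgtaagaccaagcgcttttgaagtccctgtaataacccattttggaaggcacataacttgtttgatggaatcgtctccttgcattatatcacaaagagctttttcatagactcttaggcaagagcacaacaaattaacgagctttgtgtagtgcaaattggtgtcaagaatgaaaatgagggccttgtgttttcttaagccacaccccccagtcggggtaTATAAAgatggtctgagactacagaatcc
The TATAAA letters begin 40 bases before the RefSeq start in *Krt71*, 30 in *Krt25*, 28 in *Krtap11-1* and 29 in *Krtap8-1*. In GENCODE M21, used for the gene spans, *Krt71* starts further upstream, at 101743109, inside the printed window. Its distance of 40 therefore depends on the annotation, while the other printed genes start at the same base in both. LEF/TCF letters stand 146 bases before the start in *Krt25*, on the opposite strand, and 241 bases before it in *Krtap11-1*. The windows of *Krt71* and *Krtap8-1* hold none of those letters.

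Libraries held 791491 to 2232039 counts, but 12 predicted genes made of satellite-like repeats took 37.9% to 94.3% of them. That left 69592 to 1073987 counts outside those genes, and levels across tissues are given as CPM of this remainder, called remainder CPM. *Krt5* and *Krt14*, the basal epidermal keratins, together had 42 to 7651 counts in every skin library and at most 4 in a pancreas library, as the tissue labels say. The 10 acinar genes of a fixed marker list summed to 7621 to 298272 remainder CPM in the pancreas libraries and to at most 75.6 in 9 of the 10 skin libraries. DNFB 14 held 210.

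The hair genes were plentiful in some skin libraries, nearly missing in others and at background in the pancreas. Their summed counts were 28, 19, 126, 9257 and 2404 in acetone libraries 1, 2, 3, 11 and 12. In DNFB libraries 4, 5, 6, 13 and 14 they were 2546, 115, 5888, 6760 and 258. Both skin groups thus held libraries with 258 counts or fewer beside libraries with 2404 or more.

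As remainder CPM, acetone libraries had 302, 153, 824, 8619 and 2561 in the same order. DNFB libraries had 7242, 766, 8590, 11449 and 1108. Pancreas libraries ran from 39.7 to 323 with PBS and from 30.6 to 239 with caerulein. Acetone 1, with an exact 95% interval of 201 to 437, and Acetone 2, with 92.4 to 240, fell inside the pancreas range, and the other 8 skin libraries lay above it. Such intervals cover counting error only. The medians were 824 remainder CPM with acetone and 7242 with DNFB, and the ranges of these groups overlapped.

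**Figure D1:**
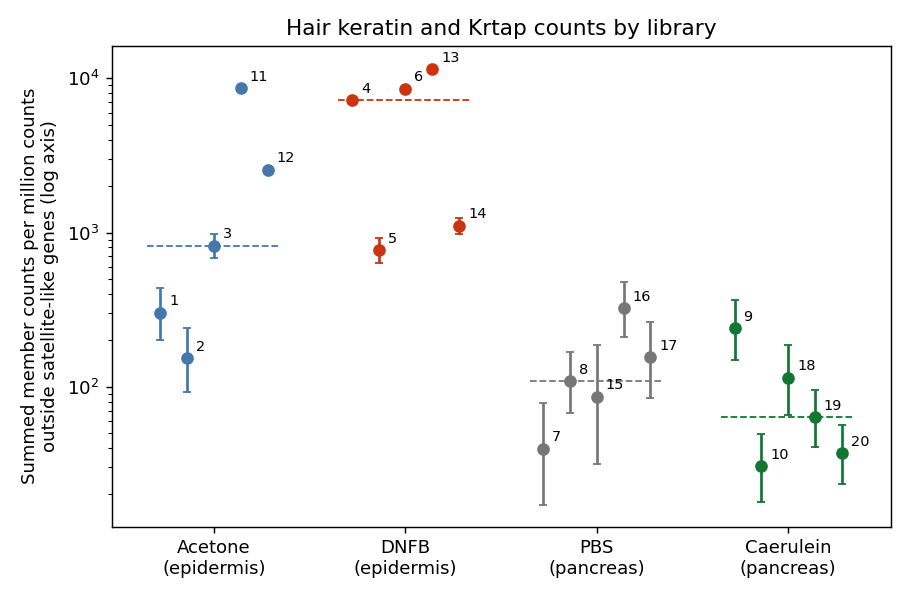
Summed counts of the 79 hair keratin and *Krtap* genes as remainder CPM (counts outside the satellite-like genes as the total), on a log axis, for each of the 20 libraries by group. Points carry the library's label number, bars are exact 95% binomial intervals and dashed lines are group medians. Acetone 1 and 2, at 302 and 153, lie among the pancreas libraries, whereas DNFB 4, 6 and 13 and Acetone 11 lie between 7242 and 11449.

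On the scale of the skin fit (CPM after trimmed-mean scaling of the library sizes, called normalized CPM), acetone libraries summed to 529 ± 688 (SD, n = 5) and DNFB libraries to 1285 ± 1038 (SD, n = 5). The mean log2 level was 1.72 higher with DNFB, which was less than the pooled SD of 1.91 between libraries of a group. Because these are bulk preparations, fewer follicle cells and less hair RNA per cell cannot be told apart. The summed level also moved with depth. The 5 skin libraries with the highest level, Acetone 11 and 12 and DNFB 4, 6 and 13, were also the 5 deepest once the satellite-like genes were set aside. They held 351566 to 1073987 such counts, and the other 5 held 92640 to 232895. The part of depth in the level was not tested.

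**Figure D2:**
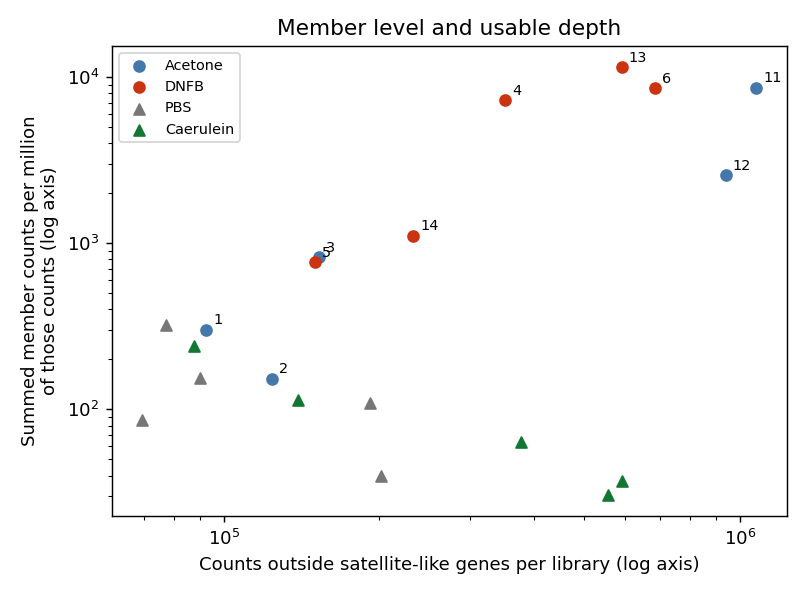
Counts outside the satellite-like genes (x, log axis) against the summed member level in remainder CPM (y, log axis), 1 point per library, with label numbers on the skin libraries. The 5 skin libraries with 351566 or more such counts have the highest skin levels, from 2561 to 11449, while the caerulein libraries 10, 19 and 20, with 376579 to 591505 such counts, have 30.6 to 63.7.

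Against the keratinocyte genes *Krt5* and *Krt14* the picture shifted. Hair gene counts per 1000 counts of that pair were 667, 67.6, 1680, 1565 and 314 in the acetone libraries and 2819, 175, 2691, 1281 and 2048 in the DNFB libraries. Acetone 3 and DNFB 14, low in remainder CPM, then stood among the libraries rich in hair genes, since their *Krt5* and *Krt14* counts were also low (75 and 126). Acetone 2 and DNFB 5 stayed low on both scales. The 667 of Acetone 1 rests on 28 hair gene counts over 42 counts of the pair, in a library inside the pancreas range in remainder CPM.

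The inner root sheath keratins gave the largest block of counts, 15849 of the 27575 counts of all members. *Krt71*, a type II keratin of all layers of the inner root sheath (chromosome 15, 101733949 to 101743109, reverse strand), led with 7138. It had 0, 0, 17, 2929 and 770 counts in acetone libraries 1, 2, 3, 11 and 12, and 713, 16, 1364, 1274 and 51 in DNFB libraries 4, 5, 6, 13 and 14. Its highest library was an acetone one. Acetone libraries averaged 152 ± 230 normalized CPM and DNFB libraries 285 ± 226 (SD, n = 5 each), and the groups overlapped. In the edgeR quasi-likelihood fit over 7265 genes the log2 fold change was 0.89 ± 1.21 (SE), with an adjusted p of 0.976.

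Type I partners in the sheath followed the same libraries. *Krt25* (chromosome 11, 99315516 to 99322951) had 0, 0, 13, 1042 and 237 counts in the acetone libraries and 230, 10, 513, 624 and 22 in the DNFB libraries, in label order. *Krt27* had 1, 0, 2, 753 and 160 against 217, 8, 302, 646 and 18. *Krt28* had 0, 4, 9, 677 and 215 against 138, 4, 309, 249 and 7. Acetone 11, the deepest skin library, had the highest count of each. Scaled for depth, DNFB 13 was above it for *Krt25* (229 against 191 normalized CPM) and *Krt27* (237 against 138), and Acetone 11 stayed highest for *Krt28* (124). Their log2 fold changes were 1.03 for *Krt25*, 1.34 for *Krt27* and 0.45 for *Krt28*, with SEs from 0.91 to 1.05. None of these passed the test (lowest adjusted p 0.965, edgeR).

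*Krt73*, a type II keratin of the inner sheath cuticle, had 1, 1, 4, 941 and 234 counts with acetone and 151, 5, 304, 313 and 7 with DNFB. Its log2 fold change of 0.34 ± 0.98 (SE) was the smallest of the members tested, and without the filter on low counts it was -0.14. *Krt72*, of the same cuticle, had 106 of its 195 counts in Acetone 11. *Krt26* had 135 counts over all libraries and *Krt74* was nearly unread in skin, as the plot of member levels shows. *Krt75*, the keratin of the companion layer between inner and outer sheath, had 1, 0, 2, 149 and 48 counts with acetone and 27, 0, 108, 70 and 18 with DNFB.

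Shaft keratins were led by *Krt35*, a type I keratin that the matrix and young cortex make early (chromosome 11, 100092193 to 100096241). It had 4, 0, 34, 1480 and 496 counts in the acetone libraries and 604, 20, 1496, 1193 and 36 in the DNFB libraries. Acetone 11 and DNFB 6 had similar counts at unequal depth, and as levels they were 271 and 524 normalized CPM, or 1378 and 2182 remainder CPM. Means were 93.0 ± 111 normalized CPM in the acetone group and 274 ± 228 in the DNFB group (SD, n = 5 each), with a log2 fold change of 1.53 ± 1.05 (SE) and an adjusted p of 0.946.

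Cortex keratins made later in the shaft had their highest counts in DNFB 13. *Krt33a* had 0, 0, 1, 276 and 44 counts with acetone against 71, 2, 303, 422 and 7 with DNFB. *Krt31* had 0, 0, 10, 248 and 38 against 86, 1, 252, 315 and 4. Their log2 fold changes were 2.07 ± 1.03 and 1.69 ± 0.97 (SE), and neither passed (adjusted p 0.884 and 0.899). *Krt33a* per *Krt35* count was 0.186 in Acetone 11 and 0.0887 in Acetone 12, and 0.118, 0.203 and 0.354 in DNFB 4, 6 and 13, so these deeper libraries overlapped between groups.

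Among type II hair keratins only *Krt83* was tested. Its counts were 0, 0, 2, 123 and 23 with acetone and 31, 6, 161, 291 and 6 with DNFB, with 6.33 ± 9.37 and 39.3 ± 42.8 normalized CPM (SD, n = 5 each). The log2 fold change was 2.28 ± 0.85 (SE), with an unadjusted p of 0.0160 and an adjusted p of 0.702. *Krt81* had 132 of its 240 counts in DNFB 13, and *Krt33b*, a type I keratin, had 135 of its 222 there. Of the cuticle keratins, *Krt32* was highest in Acetone 11 (49 counts, 8.97 normalized CPM), and *Krt82* in DNFB 13 (22 counts, 8.08 normalized CPM, against 20 counts and 3.66 in Acetone 11). *Krt36* had 48 counts (8.79 normalized CPM) in Acetone 11 and 22 (8.08) in DNFB 13. *Krt84*, a further type II hair keratin, had 7 counts in all 20 libraries together. Reads of close copies such as *Krt81*, *Krt83* and *Krt86* or *Krt33a* and *Krt33b* can be divided between them by the counting, and 34 members had at least 1 fractional value, so the split within those families is uncertain.

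Keratin-associated proteins had 54 of their 58 genes below 50 counts in all libraries together. *Krtap11-1*, which encodes a high sulfur protein (chromosome 16, 89570176 to 89571183), was the most counted, with 0, 0, 7, 131 and 24 counts in the acetone libraries and 75, 4, 214, 236 and 15 in the DNFB libraries. *Krtap8-1*, a high glycine-tyrosine gene (chromosome 16, 89487379 to 89487952), had 0, 0, 1, 114 and 17 against 41, 2, 226, 237 and 16. In contrast with *Krt71*, their highest libraries were DNFB ones. *Krtap8-1* averaged 5.36 ± 8.84 normalized CPM in acetone libraries and 41.8 ± 38.5 in DNFB libraries (SD, n = 5 each). The log2 fold changes were 2.55 ± 0.86 (SE) for *Krtap8-1* and 2.20 ± 0.80 for *Krtap11-1*. These had unadjusted p-values of 0.00897 and 0.0132 and adjusted ones of 0.607 and 0.650. *Krtap7-1* had 9 counts in the acetone libraries and 55 in the DNFB libraries, and *Krtap3-1* had 6 and 30, too few for the fit.

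Per kilobase of exon, so that genes can be compared, *Krt71* was first in both groups with means of 69.4 normalized CPM per kb with acetone and 130 with DNFB. *Krt35* followed with 38.8 and 114. *Krtap8-1* had rank 7 with acetone, at 9.35, and rank 3 with DNFB, at 72.9. Neighbours at the head of either order differed by less than the SD between libraries.

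**Figure D3:**
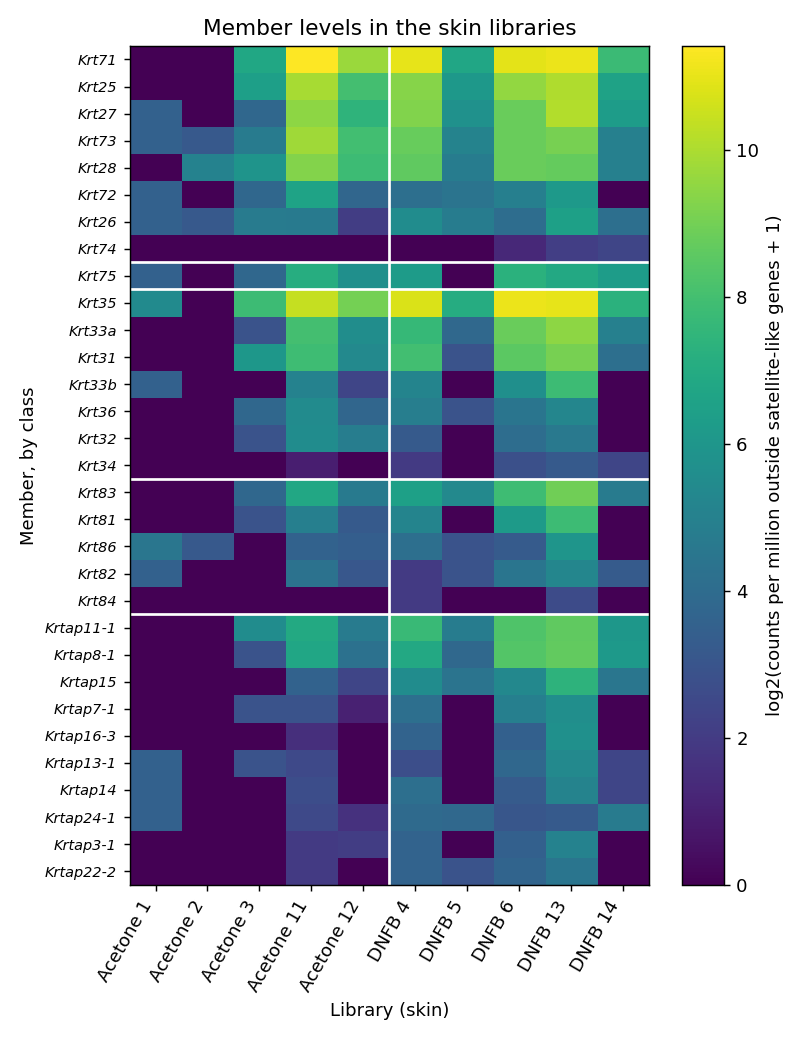
Level of the 21 keratins and the 10 most counted *Krtap* genes (rows, by class) in the 10 skin libraries (columns), as log2 of remainder CPM plus 1. Acetone 1 and 2 are dark for nearly all rows, and the lower *Krtap* rows are brightest in DNFB 13.

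Of the 79 members, 12 had enough counts in skin to be tested, and 0 passed at an adjusted p of 0.05 (edgeR, Benjamini-Hochberg over all 7265 genes), where 0.0413% of all genes tested did. At an unadjusted p under 0.05, 3 of the 12 were higher with DNFB and 0 lower, and DESeq2 called 0 of the 32 members to which it gave an adjusted p, with 11 members of 78 under 0.05 before adjustment, each higher with DNFB (2.46% of all genes were). The share of all tested genes that were higher at that unadjusted p was 2.95%. All 12 tested members had a positive log2 fold change, from 0.34 to 2.55 with a median of 1.44, beside a median of 0.02 over all genes tested. The 12 were high and low in largely the same libraries, so they are not 12 independent observations. With library totals alone as the scaling, 10 of the 12 were positive and the median was 0.80. Without the filter on low counts, 78 members had a median of 1.54, beside 0.13 over all genes.

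Single libraries moved these values. Without Acetone 11, 9 of 12 tested members were higher at an unadjusted p under 0.05 with a median log2 fold change of 2.67, and without DNFB 13 it was 2 of 12 with a median of 0.95, where 2.34% and 2.89% of all genes were higher at that level. It was 5 of 15 without Acetone 1 and also without Acetone 3 (4.0% and 12.2% of all genes), 7 of 15 without DNFB 5 (1.95%) and 6 of 15 without DNFB 14 (2.07%). The count was 4 of 15 without Acetone 2 (2.73%), 3 of 15 without Acetone 12 (1.92%) and 3 of 12 without DNFB 4 and also without DNFB 6 (2.84% and 4.15%). Over the 10 fits that left out 1 library, the log2 fold change ran from 0.56 to 2.34 for *Krt71*, from 0.02 to 1.73 for *Krt73* and from 2.11 to 4.13 for *Krtap8-1*.

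The remaining 19 named members, too rare for the fit, went into an exact permutation test each (two-sided, on log2 of the normalized CPM plus 0.728), where 5 against 5 libraries cannot give a p below 0.00794. At an unadjusted p under 0.05, 4 of them were higher with DNFB and 0 lower, where 5.55% of all genes of at least 10 skin counts that missed the filter were higher at that level. *Krtap15* had 0, 0, 0, 12 and 4 counts with acetone and 16, 3, 27, 97 and 5 with DNFB, and its mean log2 level was 3.17 higher (exact permutation p = 0.00794, the smallest possible). Scaled for depth, its DNFB libraries all lay above its acetone libraries. *Krtap24-1* (1.45 higher, p = 0.0317), *Krtap22-2* (1.60 higher, p = 0.0476) and *Krt34* (1.03 higher, p = 0.0476), by the same exact permutation test, had at most 12 counts in any library. Of 16 alternatives tried for each, *Krtap24-1* was no longer under 0.05 in 9, *Krtap22-2* in 14 and *Krt34* in 13, and leaving out 1 library was enough. *Krtap15* stayed under 0.05 in all but the 2 comparisons within 1 run of label numbers, where the smallest p that the exact test allows is above 0.05.

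Only 2 of the 79 members, *Krtap15* and *Krtap1-5*, had skin groups that did not overlap, against 0.733% of the genes with a count in skin, in the direction of higher with DNFB. *Krtap1-5* was singled out after its values were seen. It had 0 counts in all acetone libraries and 3, 2, 4, 10 and 1 in the DNFB libraries, which is at or near the floor of 3 counts in most. The gene spans of *Krtap15* and *Krtap14* overlap (chromosome 16, 88820215 to 88829844 and 88818667 to 88826145, on opposite strands), but their annotated exons share 0 bases, and in DNFB 13 they had 97 and 20 counts. The span of *Krtap15* also overlaps the gene *4930553J12Rik*, and exon bases shared with that gene were not examined. Left unfiltered, the edgeR fit called *Krtap15* and no other member (log2 fold change 3.14 ± 0.77 SE, adjusted p = 0.0250), where 0.0925% of 43251 genes were called higher.

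The difference between the skin groups had other values in each run of label numbers. Among label numbers 1 to 10, acetone libraries 1 to 3 held 19 to 126 member counts and DNFB libraries 4 to 6 held 115 to 5888. Within this run 6 members could be tested, all inner root sheath or type I hair keratins. The median log2 fold change was 4.01, led by *Krt27* at 5.32 ± 1.3 (SE) and *Krt71* at 5.19 ± 1.54, and each of the 6 had an unadjusted p under 0.05 while 0 passed after adjustment (lowest adjusted p 0.243, edgeR). In that run 4.54% of all genes were higher at the same unadjusted p. The 6 members met the count filter only with the help of the DNFB libraries, as Acetone 1 and 2 had at most 4 counts of each. Their number under 0.05 is therefore a description only.

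Among label numbers 11 to 20 the signs were mixed. With acetone libraries 11 and 12 and DNFB libraries 13 and 14, 21 members could be tested, of which 14 had a positive log2 fold change. These were 2 of 7 inner root sheath keratins, 4 of 6 type I hair keratins, 4 of 4 type II hair keratins, 3 of 3 *Krtap* genes and *Krt75*, and classes were not tested against each other. *Krt73* (-0.91 ± 0.99 SE), *Krt28* (-0.84 ± 0.93), *Krt71* (-0.50 ± 1.01) and *Krt32* (-1.25 ± 0.78) were negative, while *Krt33b* (2.77 ± 1.05), *Krt81* (2.68 ± 0.99), *Krt26* (2.12 ± 0.79) and *Krtap8-1* (2.03 ± 0.86) were positive. The call in this run was *Krtap15*, with a log2 fold change of 3.68 ± 0.79 (SE) and an adjusted p of 0.0221 (edgeR), where 6.87% of 11259 genes were called higher. The summed level over all members was 3.07 higher on the log2 scale with DNFB in the first run and -0.31, that is lower, in the second.

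An interaction term tested whether the DNFB effect differed between the runs. It was negative (a smaller effect in label numbers 11 to 20) for all 12 members tested, with values such as -5.31 ± 1.96 (SE) for *Krt71*, -4.81 ± 1.63 for *Krt73* and -1.34 ± 1.52 for *Krtap11-1*. At an unadjusted p under 0.05 it reached 5 of the 12 (*Krt27*, *Krt28*, *Krt33a*, *Krt71* and *Krt73*), where 15.2% of all genes did. After adjustment 0 of 12 members and 0.0% of all 7265 genes passed (lowest adjusted p of a member 0.227, edgeR). The labels do not call the runs a batch. Depth differed between them in the acetone group, where libraries 11 and 12 had 938689 to 1073987 counts outside the satellite-like genes and libraries 1 to 3 had 92640 to 152978. In the DNFB group it overlapped, from 150167 to 685481 in libraries 4 to 6 and from 232895 to 590467 in libraries 13 and 14. The part of depth was not tested.

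**Figure D4:**
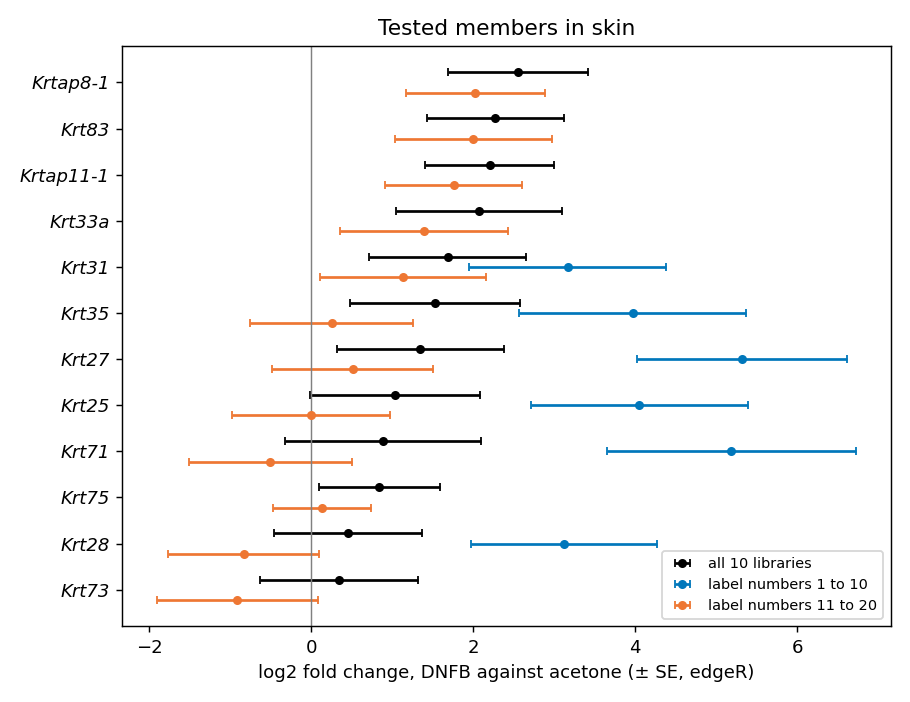
The log2 fold change of the 12 tested members with DNFB against acetone, ± SE from edgeR, for all 10 skin libraries and within each run of label numbers. Points for label numbers 1 to 10 exist for 6 genes and lie between 3.12 and 5.32, whereas those for 11 to 20 run from -0.91 for *Krt73* to 2.03 for *Krtap8-1*.

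The make-up of the hair gene counts differed between libraries beyond counting error. Inner root sheath keratins gave 69.9% of member counts in Acetone 11 (exact 95% interval 69.0 to 70.9) and 67.8% in Acetone 12 (65.9 to 69.7). They gave 57.8% in DNFB 4 (55.8 to 59.7), 48.0% in DNFB 6 (46.7 to 49.2) and 47.4% in DNFB 13 (46.2 to 48.6). The sheath share was thus higher in the acetone libraries of this richer set, but Acetone 3, with 126 member counts, had 40.5% (31.8 to 49.6), below all 3, so the groups overlapped.

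*Krtap* genes ran the other way. They gave 3.35% of member counts in Acetone 11 and 2.41% in Acetone 12. They gave 8.25%, 10.3% and 13.3% in DNFB 4, 6 and 13, and 28.7% in both DNFB 5 and DNFB 14, where 33 of 115 and 74 of 258 counts were *Krtap* counts. Acetone 3 had 17.5% (11.3 to 25.2). Acetone 3, DNFB 5 and DNFB 14, poor in hair genes, thus had larger *Krtap* shares than the richer libraries. Among the richer ones the order was reversed within each group, with the lowest shares in Acetone 12 and DNFB 4. In the pancreas, where the genes are at background, *Krtap* genes were 117 of 174 counts (67.2%). Type II hair keratins gave 2.02% in Acetone 11 and 7.16% in DNFB 13. The ratio of *Krt71* to *Krt35* was 1.98 in Acetone 11 and 1.55 in Acetone 12, against 1.18, 0.912 and 1.07 in DNFB 4, 6 and 13. No test was made of these shares.

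**Figure D5:**
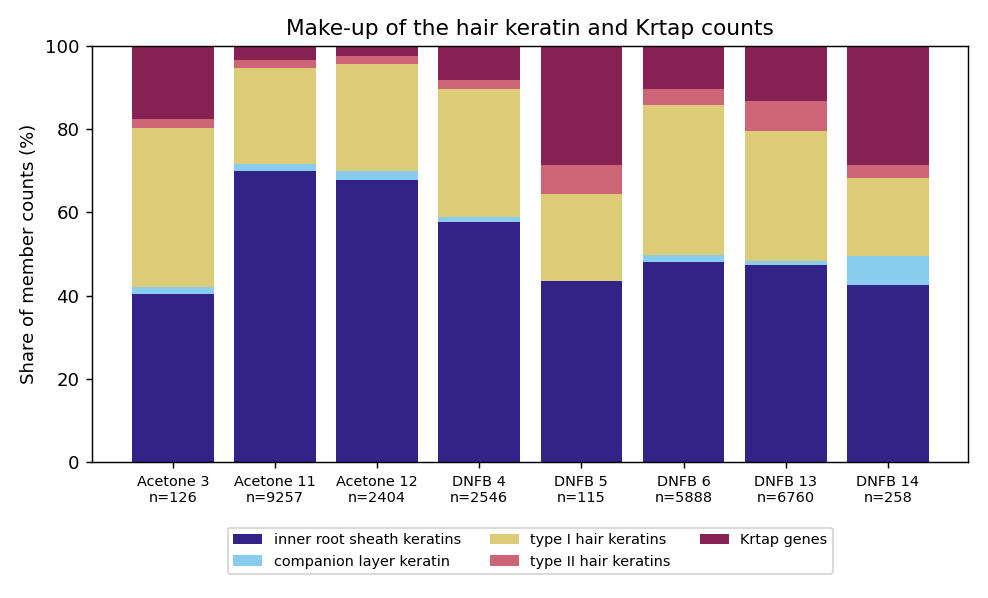
Share of member counts in 5 classes for the 8 skin libraries with at least 100 member counts, whose totals stand under the bars. The inner root sheath block falls from 69.9% in Acetone 11 to 47.4% in DNFB 13 and the *Krtap* block rises from 3.35% to 13.3%, while Acetone 3, DNFB 5 and DNFB 14 have few counts.

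Protein families were assigned by family number alone, so class sizes and sums hold for that assignment only. The high sulfur *Krtap* genes (12 genes) had 205 counts in the acetone libraries and 859 in the DNFB libraries. Those of the high glycine-tyrosine genes (16 genes) were 152 and 747. The ultra-high sulfur families (16 genes) had 26 and 91, of 156 counts in all 20 libraries. The *Krtap* genes given no class here (14 genes) had 34 and 126, of 205. Their protein composition was not analysed, and they may include sulfur-rich proteins. For both of these the rest of the total lay in the 10 pancreas libraries and was larger than the acetone count, so their acetone counts are at background. Over all families DNFB 13 gave 897 *Krtap* counts and DNFB 6 gave 609, against 310 in Acetone 11, the highest of the acetone libraries.

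Lists of other follicle genes had medians of either sign, and compartments were not tested against each other. *Tchh*, which encodes trichohyalin, the granule protein of the inner root sheath, had 7, 4, 10, 486 and 68 counts with acetone and 112, 1, 318, 649 and 11 with DNFB. *S100a3*, a calcium-binding protein of the hair cuticle, had 6, 1, 6, 501 and 139 against 101, 8, 336, 310 and 20. Of the 10 genes on a list of follicle structural proteins and enzymes, 5 were tested and 0 passed, with a median log2 fold change of 0.96. Of 13 regulators of the hair matrix, 9 were tested and 0 passed, with a median of 0.26. *Dlx3* and *Msx2*, transcription factors of matrix and young shaft cells, had their highest counts (226 and 132) in Acetone 11, which as a level was also the highest for *Dlx3* (41.4 normalized CPM), while for *Msx2* DNFB 6 was higher (29.8 against 24.2). *Shh*, a signal of the anagen matrix, had 2 counts or fewer in every library. Bulge and outer root sheath genes (12 listed, 7 tested) had 0 calls, a median of -0.71 and 1 positive value, *Krt17* at 1.15 ± 0.96 (SE). The lowest of that list was *Krt15*, a keratin of the bulge and basal layer, with 13, 129, 35, 1517 and 2077 counts with acetone and 62, 18, 141, 88 and 10 with DNFB. Its log2 fold change was -2.99 ± 0.78 (SE), with an adjusted p of 0.253 (edgeR).

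Dermal papilla and pigment cell genes were followed because both cell types sit in the hair bulb. Of 9 papilla genes, 3 were tested and 0 passed, with a median log2 fold change of 1.62. Summed papilla levels were 72.7 to 205 remainder CPM with acetone and 193 to 273 with DNFB. In the pancreas they were 52.0 to 201 with PBS and 46.8 to 216 with caerulein, and the acetone levels lay within that range. DNFB 4, 5, 6 and 13, at 273, 260, 230 and 259, lay above all pancreas libraries, and DNFB 14, at 193, did not. The highest pancreas value, 216, came from Caerulein 9, with 87788 counts outside the satellite-like genes. The deeper Caerulein 10, 19 and 20 had 46.8, 92.9 and 69.3. *Wif1*, a WNT inhibitor of the papilla, had 0, 1, 2, 51 and 32 counts with acetone and 42, 8, 75, 82 and 5 with DNFB. Its log2 fold change was 1.74 ± 0.59 (SE), with an unadjusted p of 0.00842 and an adjusted p of 0.607 (edgeR). *Sox2* was at 2 counts or fewer in every library. Melanocyte genes were 7 of 8 tested with 0 passing and a median log2 fold change of 1.24, and *Pmel*, a melanosome fibril protein, had 0, 0, 8, 610 and 171 against 202, 20, 467, 198 and 49. Summed melanocyte levels ranged from 72.7 to 1457 with acetone and from 553 to 1859 remainder CPM with DNFB.

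Genes of other skin compartments had values in both directions. Of 12 interfollicular epidermal genes, 10 were tested, 3 were positive and the median was -1.29. *Krt77*, a keratin of the upper epidermis and sweat ducts, was the one gene of these lists to pass. It fell by 7.34 on the log2 scale (SE 1.11, adjusted p = 0.0313, edgeR), from 15, 76, 15, 2157 and 2301 counts to 2, 0, 1, 9 and 2. The keratins of hyperproliferative epidermis, *Krt6a*, *Krt6b* and *Krt16*, had log2 fold changes from 4.28 to 4.90 and missed the threshold (adjusted p from 0.128 to 0.25). Fibroblast genes (5 of 6 tested, median -1.86) and leukocyte genes (3 of 6 tested, median -1.75) had 0 calls, and so did sebocyte genes (5 of 8 tested, median 0.26). Acetone 11 and 12 also held 2602 and 3324 remainder CPM of the leukocyte list and 2277 and 2535 of the fibroblast list. The other 8 skin libraries held 183 to 674 and 433 to 1437. What the wider mix of cells in those libraries adds to the hair gene comparison was not tested.

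In the pancreas, which has no hair follicles, the members gave 174 counts over 10 libraries. Counts per library were 8, 21, 6, 25 and 14 with PBS and 21, 17, 16, 24 and 22 with caerulein. No member passed the filter in the comparison of caerulein with PBS, so 0 of 946 genes tested were members. The highest count of a member in a pancreas library was 4, for *Krtap5-3* in PBS 16, and every other member had 3 counts or fewer. Caerulein 9, the library of lowest usable depth in its group, had that group's highest level, 239 remainder CPM.

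Control skin against control pancreas placed these values on 1 scale. With acetone and PBS libraries alone, 736 genes were tested and 0 of them were members. Without the filter on low counts, 13 of 67 members were called higher in acetone skin and 0 lower, where 2.45% of 40039 genes were called higher (edgeR, adjusted p under 0.05), and DESeq2 called 5 of 67, where 2.14% of all genes were. The median log2 fold change without the filter was 1.28, beside 0.44 over all genes, with 46 of 67 members positive. With DESeq2 the median was -0.38, beside -0.22 over all genes, with 26 of 67 positive. When all 4 groups shared 1 fit, 12 members entered through their counts in skin and 7 were called higher, where 6.72% of 8336 genes were. Because those 12 had to be high in skin to enter, that count is a description only. As levels, *Krt35* had 43.2, 0, 222, 1378 and 528 remainder CPM in acetone libraries 1, 2, 3, 11 and 12, and at most 7.16 in a pancreas library. Acetone 1 (4 counts) thus lay above all 10 pancreas libraries for this gene, and Acetone 2 did not. *Krt71*, with 0 counts in both Acetone 1 and 2, had 0 to 22.2 remainder CPM in the pancreas.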

How the data were processed

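RNA was sequenced from 20 libraries with a modified Smart-Seq2 protocol, which does not use unique molecular identifiers. The authors aligned reads with STAR 2.5.3 and deposited RSEM 1.3.1 expected counts per gene for GRCm38 (mm10), and their notes also list DESeq2 1.24.0. The annotation and strand settings are not given in the sources used here. Of the deposited values 94.7% were whole, and all were rounded. Symbols came from Ensembl IDs through GENCODE M21, which matched 55144 of 55471 genes. Promoter letters came from RefSeq. Protein composition was not analysed here.

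Counts were tested in edgeR 4.0.16 (R 4.3.3) with glmQLFit and glmQLFTest after filterByExpr with a minimum count of 10 and TMM scaling, within each tissue, with Benjamini-Hochberg adjustment over all genes tested and a threshold of 0.05. DESeq2 1.42.0 was an alternative. Standard errors were the log2 fold change divided by the square root of the F statistic. Rare members were compared by exact permutation (scipy 1.17.1). Depth ran from 791491 to 2232039 counts per library, of which 69592 to 1073987 lay outside 12 satellite-like genes. A count of 0 allows up to 3 counts.

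Text names the 21 keratin members, the 10 *Krtap* genes with most counts, members that passed in a fit, and examples from marker lists. Members, lists and the division by label number were chosen with earlier results of these data known, and the protein families of the *Krtap* genes were assigned by number from general knowledge. The fit was tested on simulated data.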

Additional observations from a re-analysis of the deposited data

Results flagged for a closer look

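Each group of 5 libraries was examined for a single library far from the rest, in 64 sets of values (the summed level in the 4 groups and each named member in the skin groups). The test uses the gap to the nearest library divided by the range, with a critical ratio of 0.71, and by chance it marks about 1 set in 20. It marked 4, where chance gives 3.2. *Krt34*, *Krtap16-3* and *Krtap22-2* stood apart in Acetone 11, each with a ratio of 1, because they had 1, 2 and 3 counts there and 0 in the other 4 acetone libraries. *Krt75* stood apart in DNFB 5, with a ratio of 0.775, as it had 0 counts there and 18 to 108 in the other DNFB libraries. DNFB 5 also had 150167 counts outside the satellite-like genes, the fewest of its group. These 4 cases rest on libraries with 3 counts or fewer of the gene on one side, and no cause was tested.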

How the results depend on the processing

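Counts of called members kept to 0 in skin under all alternatives except 2, each giving 1 member, *Krtap15*. These were the fit without a filter on low counts (0.0925% of all genes called higher) and label numbers 11 to 20 alone (6.87%). In the pancreas the count stayed at 0 in all 18 alternatives, 15 of which held no member to test. Control skin against control pancreas gave 0 members, but 13 without the filter, 7 with all 4 groups in 1 fit and 5 with DESeq2. In those settings 2.45%, 6.72% and 2.14% of all genes were called higher. Members entered because no such filter was applied there or, in the shared fit, through the skin libraries. Leaving out each library in turn gave 0 called members in skin, and held no member to test in the other 2 comparisons.

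The log2 fold changes of the 12 tested members kept their sign in 249 of 258 refits. The exceptions were *Krt28* (-0.12) and *Krt73* (-0.34) with library totals only, *Krt73* without the filter (-0.14), *Krt28* (-0.26) and *Krt73* (-0.45) without Acetone 1 and 2, and, for label numbers 11 to 20 alone, *Krt25* (-0.0014), *Krt28* (-0.84), *Krt71* (-0.50) and *Krt73* (-0.91). The summed level was then -0.31. It was 3.08 higher with DNFB without Acetone 11 and 12 and 0.44 without Acetone 1 and 2, 1.90 with totals outside the satellite-like genes and 1.31 per 1000 *Krt5* and *Krt14* counts. Without 1 library it ranged from 1.15 to 2.42. Among rare members, *Krt36* was -0.58 and *Krt72* -0.55 without Acetone 1 and 2, *Krt36* was -1.24 and *Krt72* -1.34 for label numbers 11 to 20, *Krtap13-1* was -0.11 for label numbers 1 to 10, and *Krt32* was 0.90 without Acetone 11 and 12 and 0.89 for label numbers 1 to 10. Leaving out 1 library gave -0.72 to 0.22 for *Krt32*, -0.34 to 0.92 for *Krt72* and -0.37 to 0.70 for *Krt86*. The cause was not tested. The 4 comparisons that leave out pairs of libraries or use 1 run of label numbers, and the interaction, were chosen after seeing the data. No paired analysis was possible because no label number occurs in more than 1 group. At this depth 67 of 79 members had too few counts to be tested in skin.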
